A study of Mus musculus with 12 samples.

Results

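Islets of mice lacking SHP were compared with wild-type islets after both had been on a western diet, across every gene that gave signal in either group. The gene Nr0b2 codes for SHP, the small heterodimer partner, a nuclear receptor without a known ligand. The comparison covers the genes whose probe signal stood above the negative controls, at a detection p-value below 0.01, on all 3 arrays of the wild-type group (WT), of the SHP-null group (SHPKO), or of both. That rule gave 8675 of the 8875 genes tested in the series. Of these, 44 genes of pancreatic acinar cells and 40 genes of lymphocytes and plasma cells were set aside as separate blocks, which left 8591 genes, still a mixture of islet and other cells.

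The animals were male C57Bl/6Hsd mice, 10 months old, and were either WT or SHP-/-. The western diet began at 4 months of age and lasted 6 months, and both groups compared here received it. Islets were freed by perfusing the pancreas with collagenase, and RNA of 5 to 9 mice was pooled per group and run in triplicate on Illumina beadchips. How SHP was deleted is not given in the labels used here. The triplicates are read here as technical replicates of a pool, so the p-values measure the spread between arrays and not between mice. Matching WT and SHPKO groups on chow, with 3 arrays each, are used below only to set the western diet difference beside the chow difference.

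SHP has no DNA-binding domain and works by binding other nuclear receptors and repressing the transcription they drive. It is best known in the liver, where it takes part in the feedback of bile acids on their own synthesis. In islets, insulin-producing beta cells lie among alpha, delta, PP and epsilon cells, and an islet preparation carries varying amounts of exocrine, vascular, stromal and immune cells. In RNA from such a mixture, fewer cells of a type and less RNA per cell cannot be told apart.

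On the 6 western diet arrays, 14435 to 15081 probes were detected, and the median raw intensity was 80.0 to 87.3. Signals of 2 arrays correlated at 0.985 to 0.993 within a group and at 0.969 to 0.978 between the groups (Pearson's r across kept probes, a description over probes that are not independent). The median SD of a gene over 3 arrays was 0.124 in WT and 0.115 in SHPKO on the log2 scale. All levels below are background-corrected, quantile-normalized log2 intensities, and all differences are SHPKO minus WT on that scale. The probe of Nr0b2 was not well above background on any of the 6 arrays, WT ones included, so it does not check the genotype labels. Of the islet markers, 7 of 8 beta cell genes were tested and all 7 were detected in WT and 6 in SHPKO. The eighth, Ins1, had no probe of that name, and the one not detected throughout in SHPKO was Mafa, a beta cell transcription factor.

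A gene was called where the Benjamini-Hochberg adjusted p of limma's moderated test over 8875 genes was below 0.05 and the change at least 1.5-fold. In all, 281 tested genes were called, which is 3.17%, with 173 higher in SHPKO (1.95%) and 108 lower (1.22%). Counts of called genes in the lists below are to be read against these shares. Among the 8675 genes detected in either group, 279 were called, 172 higher and 107 lower, and the median difference was 0.02. The 3 arrays of one genotype lay wholly above those of the other for 2153 of them, against 24.5% of all tested genes. The acinar block supplied 43 of the called genes and the lymphoid block 32. The remaining 204 lay outside both blocks, 140 higher and 64 lower, and 60 of them differed at least 2-fold.

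**Figure D1:**
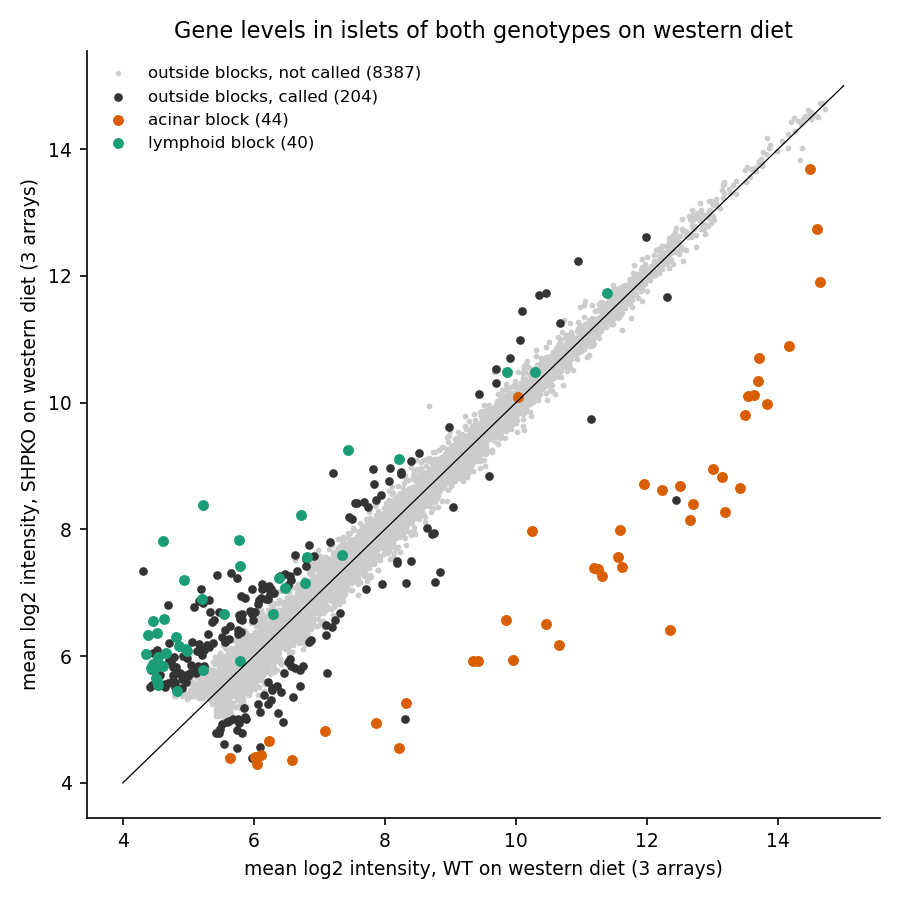
Mean log2 intensity of each of the 8675 genes in WT (x axis) and SHPKO (y axis) islets on western diet, 3 arrays per group, with the line of equal level. All but 1 of the 44 acinar genes lie below the line, the lymphoid genes lie above it mostly at low WT levels, and the 204 called genes outside the blocks are mostly of low or middle level.

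Acinar transcripts were the largest change. These genes encode the digestive enzymes that the exocrine pancreas secretes. In the acinar block 43 of 44 genes fell and none rose, with a median difference of -3.50 (-3.47 with genes undetected in one group taken at their bound) against 0.02 over all genes. Reg1, a secreted lectin of acinar cells, measured 12.38, 12.43 and 12.25 on the WT arrays and 6.54, 6.43 and 6.29 on the SHPKO arrays. It fell by 5.93 ± 0.10 (SE, adjusted p = 1.3e-12), the largest change of any gene by limma's fit. The elastase gene Cela3b fell by 4.91, the trypsinogen gene Try10 by 4.76 and the carboxypeptidase gene Cpb1 by 4.52. Pnliprp2, a pancreatic lipase relative, fell by 4.47, and Cel, the bile salt-dependent lipase, by 4.32. The single gene of the block that was not called, Bhlha15, is an acinar transcription factor and measured 10.03 ± 0.08 in WT and 10.08 ± 0.03 in SHPKO (SD, n = 3 arrays each). The summed linear signal of the block was 251502 to 276055 on the WT arrays and 37807 to 42224 on the SHPKO arrays. The same block had a median difference of -3.91 on chow, and for Reg1 and Try10 the fall on western diet exceeded that on chow by 1.38 and 1.10 (adjusted p of the interaction 0.00013 and 0.00061).

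Beyond the block, 5 further called genes followed the same course on both diets. Hamp2, a hepcidin gene also expressed in exocrine pancreas, measured 8.58, 8.46 and 7.91 in WT and 5.26, 5.00 and 4.78 in SHPKO, where it was detected on 1 of 3 arrays. It fell by 3.30 on western diet, and on chow it measured 8.17 in WT and 4.73 in SHPKO, the latter below the lowest detected signal of 5.07 to 5.32 on those arrays. Gamt, which makes creatine, was at least 2.13-fold lower and Cldn10, a tight junction claudin, at least 2.26-fold lower. Such a bound is given where a gene was not well above background on any array of one group, and sets the brighter group against the lowest detected signal. The epithelial mucin gene Muc1 measured 5.59 in WT and 4.97 in SHPKO, where that probe was detected on no array, and another of its probes differed by -0.07. A gene known only as Gm5409, named here after its value was seen, fell by 3.98. These 5 were grouped after their values were seen.

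Lymphoid transcripts moved the other way. In the lymphoid block 32 of 40 genes rose and none fell, with a median difference of 1.26 (0.75 with bounds). Of the 40, 25 were detected in SHPKO only, so a rise is built into how those entered the comparison. Cd79b, the signalling subunit of the B cell receptor, measured 4.34, 4.80 and 4.68 in WT, where no array detected it, and 7.79, 7.96 and 7.69 in SHPKO. It was at least 5.66-fold higher (adjusted p = 3.1e-08). Fcmr, the Fc receptor for IgM, rose by 3.16 from a WT level at which 1 of 3 arrays detected it. The proton channel gene Hvcn1 was at least 3.71-fold higher, the chemokine receptor gene Ccr6 at least 2.36-fold and the B cell lectin gene Cd22 at least 2.42-fold. Mzb1, a chaperone of antibody-secreting cells, rose by 2.06. The T cell receptor complex gene Cd3d was at least 1.67-fold higher, while its partner Cd3e (5.23 in WT, 5.78 in SHPKO, adjusted p = 0.061) and the T cell genes Cd8b1 and Il7r were not called. Coro1a, an actin regulator of leukocytes in general, rose by 1.83. Of the defining B cell markers tested, 0 of 3 were detected in WT and 3 of 3 in SHPKO, and of T cell markers 0 of 2 and 2 of 2. The block's summed linear signal was 6775 to 7015 in WT and 11146 to 11505 in SHPKO, and its median difference on chow was 0.02.

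Outside the blocks, leukocyte genes still made up a large share of the rises. Sorting the 204 called genes by what they encode, after their values were seen, gave 52 genes of leukocytes, all higher. Only 18 of them were detected in both groups, and for the others a rise is built into how they entered the comparison. Of these 52, 41 had a WT mean below 6, close to the lowest detected signal of 5.22 to 5.34. The B cell chemoattractant gene Cxcl13 measured 4.73, 4.78 and 4.57 in WT and 6.72, 6.82 and 6.89 in SHPKO, at least 2.82-fold higher. On chow it measured 4.66 in WT, below the lowest detected signal, and 5.61 in SHPKO. The kinase genes Stk17b and Btk, the latter acting downstream of the B cell receptor, were at least 3.36-fold and 1.66-fold higher. Plac8, a leukocyte protein, and Il4i1, an amino acid oxidase of B cells and myeloid cells, rose by 1.68 and 1.70, each detected on 1 WT array. The sorting rests on textbook roles, and the part of leukocyte RNA in any single rise was not tested.

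Some genes of the macrophage and MHC class II list rose, while none of the 3 defining macrophage markers tested was called. Of the 26 genes of that list, 6 rose and none fell, with a median of 0.20 (0.12 over its genes detected in both groups). Only 4 of the 6 were detected in both groups, and for the others a rise is built into how they entered the comparison. Lyz1, a lysozyme, was at 10.06, 10.00 and 10.14 in WT and 11.01, 10.88 and 11.08 in SHPKO, a rise of 0.93. Lgals3, which encodes galectin-3, rose by 0.97, and the activation marker Cd83 by 1.05. Gpnmb, a glycoprotein of lipid-laden macrophages, was at least 1.19-fold higher. The antigen presentation genes Cd74 and H2-DMb1 rose by 0.59 and 0.64, and both calls were lost when single arrays were left out. H2-Ab1 was higher by 0.42 (adjusted p = 0.040), under the fold required. The defining macrophage receptors did not pass: Csf1r was 6.36 ± 0.17 in WT and 6.27 ± 0.12 in SHPKO, and Adgre1 6.31 ± 0.30 and 6.16 ± 0.35. Lyz2, a second lysozyme gene among the defining macrophage markers, did not pass either, higher by 0.21 (adjusted p = 0.50).

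Stromal and vascular genes showed single rises. In the fibroblast and matrix list 3 of 24 genes rose, with a median of 0.22. Decorin, a small collagen-binding proteoglycan encoded by Dcn, measured 7.52, 7.10 and 7.02 in WT and 9.02, 8.86 and 8.81 in SHPKO. It rose by 1.68 ± 0.24 on western diet and by 1.55 on chow. Col6a1, a collagen VI chain, rose by 0.78 and Thy1, a surface marker of fibroblasts and T cells, by 0.77, but both calls were lost when any of several single arrays was left out. The basement membrane gene Col4a1 was higher by 0.46, under the fold required. Of 23 endothelial genes only the water channel gene Aqp1 was called (a rise of 0.68, lost without any of 5 of the 6 arrays).

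A few blood and liver transcripts rose. In the liver list 1 of 5 genes was called and 4 were not, and of 3 liver markers only the called gene, Mup2, was tested. Mup2, a major urinary protein that liver secretes, was at 4.38, 4.32 and 4.23 in WT, undetected, and 7.36, 7.20 and 7.47 in SHPKO. It was at least 4.08-fold higher, the largest rise outside the blocks by the fitted value, while the chow groups measured 4.41 in WT and 4.43 in SHPKO. The globin genes Hba-a1 and Hbb-bt rose by 0.70 and 0.63, with calls lost in several settings. The lowest of the 4 kept probes of Hbb-bt gave -0.16, and Hbb-bs was higher by 0.44, under the fold required. Hba-a1 and Hbb-bt were higher on chow in both genotypes, for example Hba-a1 at 11.62 in WT.

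Genes that define beta cells showed no called change on their brightest probes. Of 25 beta cell identity genes, 0 rose and 0 fell, with a median of -0.01. The insulin gene Ins2 measured 14.48, 14.57 and 14.61 in WT and 14.52, 14.57 and 14.54 in SHPKO, so the arrays overlapped and the difference was -0.01 ± 0.08. G6pc2, the islet glucose-6-phosphatase, differed by -0.14, the oxidoreductase gene Ero1b by 0.08 and the zinc transporter gene Slc30a8 by -0.09. The transcription factor genes Pdx1 and Nkx6-1 differed by -0.04 and 0.12, and Slc2a2, the glucose transporter of beta cells, by -0.32 (adjusted p = 0.20). None of these passed the test, which does not show that the levels were equal. With the mean over its probes in place of the brightest, Slc2a2 was called, at -0.69 (adjusted p = 0.017), and the lowest probes of G6pc2 and Ero1b gave -0.92 and -0.52.

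Granule, channel and energy genes behaved likewise. Of 25 genes for granule proteins and prohormone processing, 17 for ion channels and calcium handling, 67 for oxidative phosphorylation, 28 for glycolysis and 44 for ribosomal proteins, 0 were called. Their medians were 0.04, 0.05, 0.04, 0.02 and 0.10. The granins Scg2 and Chga differed by 0.04 and 0.09. Ucn3, a beta cell peptide of mature islets, differed by -0.10. Over the 8591 genes outside the blocks, the middle 95% of differences ran from -0.41 to 0.52, so a typical islet gene differed by less than 1.5-fold between the genotypes.

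Among the other islet hormones, glucagon (Gcg) was at 14.71 ± 0.07 in WT and 14.63 ± 0.16 in SHPKO and somatostatin (Sst) at 14.20 ± 0.15 and 14.42 ± 0.07, neither past the test. Pancreatic polypeptide (Ppy) was at 14.27, 14.30 and 14.41 in WT and 13.86, 13.82 and 13.80 in SHPKO, with no overlap. It was lower by 0.50 ± 0.10 (adjusted p = 0.010), under the fold required. On chow the order was the reverse, with Ppy higher in SHPKO by 0.57, and the interaction was -1.07 (adjusted p = 0.00082). Ghrelin (Ghrl), the epsilon cell hormone, fell by 0.72 (adjusted p = 0.046), after a rise of 0.86 on chow, but its western diet call was lost in most other settings, the fit with a replicate block and the loss of any single western array among them. Ttr and Pyy, which alpha and PP cells express strongly, differed by 0.16 and 0.05.

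Irx2, a homeobox transcription factor of alpha cells, was the one called rise among the 15 genes of other endocrine cells (1 higher, 1 lower, median 0.19). It measured 6.87, 6.79 and 6.86 in WT and 7.79, 7.75 and 7.71 in SHPKO. The difference was 0.91 ± 0.09 (adjusted p = 1.3e-05). On chow both genotypes stood at the SHPKO level, at 7.69 and 7.61, so that the WT group on western diet was the one that stood apart.

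Of 12 genes of endocrine progenitors and of beta cells that lose their identity, 3 rose and none fell. Among all tested genes 1.95% rose and 1.22% fell. The list had a median of 0.46 (0.43 over its genes detected in both groups) against 0.02 over all genes. Of the 3 called genes, 2 were detected in both groups. For Aldh1a3, detected in SHPKO only, a rise is built into how it entered the comparison. Neurog3, the transcription factor that starts endocrine differentiation, was at 6.08, 5.74 and 5.58 in WT and 7.16, 6.74 and 6.95 in SHPKO, a rise of 1.15 ± 0.17 (adjusted p = 0.00082). Aldh1a3, an aldehyde dehydrogenase often used as a marker of dedifferentiated beta cells, was at 5.05 ± 0.28 in WT and 6.23 ± 0.19 in SHPKO (SD, n = 3 arrays), and its probe was detected on none of the WT arrays. Igfbp4, which binds insulin-like growth factors, rose by 0.68, with the call lost without any of 3 single arrays. Zfp36l1, an RNA-destabilizing protein, was higher by 0.57 (adjusted p = 0.0012), just under the fold required, and Sox4, a progenitor transcription factor, by 0.48 (adjusted p = 0.078). For Neurog3 the chow levels were 7.07 in WT and 7.20 in SHPKO, above the WT level on western diet of 5.80, and the interaction was 1.02 (adjusted p = 0.040).

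**Figure D2:**
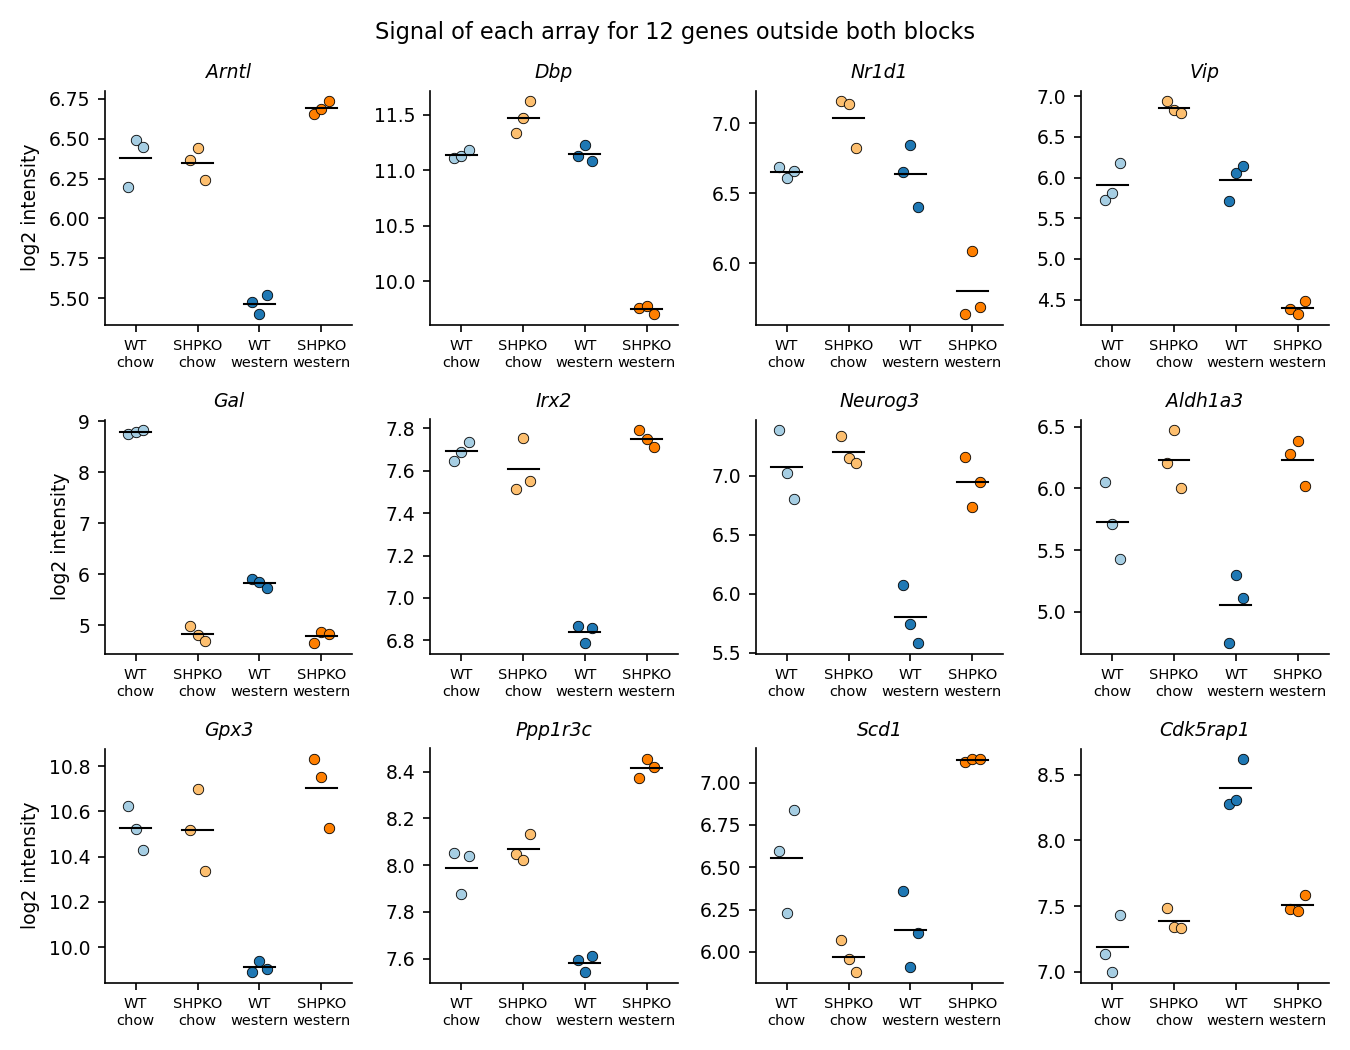
Log2 intensity of 12 genes outside both blocks on each of the 12 arrays (points) with group means (bars), for WT and SHPKO on chow and on western diet. The SHPKO and WT arrays on western diet do not overlap for any of the 12, and for Irx2, Neurog3 and Gpx3 the WT group on western diet is the one that lies apart from the other 3.

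Clock genes changed in both directions. The circadian clock is a loop in which CLOCK and BMAL1, the product of Arntl, drive genes such as Dbp, Nr1d1, Per and Cry, and the products of the latter repress it. Of 15 clock genes, 1 rose and 2 fell, with a median of -0.06. Arntl measured 5.48, 5.40 and 5.52 in WT and 6.65, 6.68 and 6.74 in SHPKO, and rose by 1.23 ± 0.10 (adjusted p = 2.2e-06). Dbp, a PAR bZIP transcription factor of clock output, measured 11.13, 11.23 and 11.09 in WT and 9.76, 9.78 and 9.70 in SHPKO, and fell by 1.40 ± 0.09 (adjusted p = 2.4e-07). Nr1d1, which encodes the nuclear receptor REV-ERB alpha that represses Arntl, was at 6.66, 6.84 and 6.40 in WT and 5.64, 6.09 and 5.69 in SHPKO, a fall of 0.83 ± 0.14. For all 3 genes the arrays of the groups did not overlap, which held for 24.5% of all tested genes. Of the genes given above as driven by CLOCK and BMAL1, Dbp and Nr1d1 fell, and Per1, Per2 and Cry2 were not called. The activity of BMAL1 was not tested.

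Other clock genes had smaller differences that did not pass. Nr1d2 differed by -0.43, Per2 by -0.33, Cry2 by -0.06, Per1 by -0.02 and Clock by 0.07. Ciart, a repressor of the loop, differed by -0.51 (adjusted p = 0.066), but was called with the mean over its probes (-0.72) and without SHPKO array 2 (-0.65). On chow the differences of the called genes were not past the test, at -0.03 for Arntl, 0.34 for Dbp and 0.39 for Nr1d1. The interaction was called for 5 of the 15, against 2.07% of all tested genes, namely Arntl (1.26), Dbp (-1.74), Nr1d1 (-1.22), Ciart (-1.21) and Cry2 (-1.01). The labels give no time of day at which the islets were taken.

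The promoter of Arntl is shown because REV-ERB alpha and the ROR receptors act on it. It is taken from RefSeq on the plus strand of GRCm38.p6 at chr7:113207261-113207560, from 250 bases before to 50 bases after one of 2 listed starts. The capitals mark AGGTCA, the core of an element bound by these receptors.
Arntl: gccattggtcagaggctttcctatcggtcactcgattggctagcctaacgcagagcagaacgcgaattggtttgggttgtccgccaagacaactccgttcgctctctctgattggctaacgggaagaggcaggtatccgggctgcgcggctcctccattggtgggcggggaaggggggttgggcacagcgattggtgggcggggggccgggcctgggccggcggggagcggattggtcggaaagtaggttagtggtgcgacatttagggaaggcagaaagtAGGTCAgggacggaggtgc
On either strand AGGTCA occurs in 16.3% of 32851 mouse promoters of this length, and the window around the other listed start of Arntl does not hold it. The E-box CACGTG, to which BMAL1 binds with CLOCK, occurs in 7.15% of them and is in none of the windows of Arntl, Dbp and Nr1d1.

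Neuropeptides and secreted factors changed in both directions. Of 14 such genes 2 rose and 3 fell, with a median of -0.15. Vip, which encodes the vasoactive intestinal peptide of islet nerves, measured 5.71, 6.05 and 6.15 in WT and 4.39, 4.32 and 4.49 in SHPKO, where no array detected it. It was at least 1.62-fold lower (adjusted p = 5.3e-06). On chow it was higher in SHPKO, at 6.86 against 5.91, and the interaction of -2.52 was the largest negative one outside the blocks. Gal, which encodes galanin, an inhibitor of insulin release, measured 5.90, 5.85 and 5.72 in WT and 4.64, 4.87 and 4.83 in SHPKO, at least 1.47-fold lower. On chow it measured 8.79 in WT and 4.82 in SHPKO, the latter below the lowest detected signal, as on western diet.

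The promoter of Vip is shown for its cAMP response core, TGACGT, in capitals. It is the RefSeq sequence of the plus strand of GRCm38.p6 at chr10:5638968-5639267.
Vip: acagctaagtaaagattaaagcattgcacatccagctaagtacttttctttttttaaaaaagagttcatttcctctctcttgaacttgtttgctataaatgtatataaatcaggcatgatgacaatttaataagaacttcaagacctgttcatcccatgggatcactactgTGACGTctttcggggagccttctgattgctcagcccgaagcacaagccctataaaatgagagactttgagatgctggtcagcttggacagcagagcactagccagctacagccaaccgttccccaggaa
That core is found on either strand in 7.51% of the promoters and is not in the window of Gal.

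Igf1, the growth factor, was at least 1.42-fold lower in SHPKO, and on chow it measured 6.09 in WT and 5.12 in SHPKO. Igf2 was lower by 0.46 (adjusted p = 0.014), under the fold required. Angptl7, a secreted angiopoietin-like protein, was at 8.07 ± 0.05 in WT and 8.97 ± 0.15 in SHPKO, a rise of 0.90. Cartpt, a peptide of islet nerves and endocrine cells, rose by 0.64, a call lost without WT array 3. For Angptl7 and Cartpt the WT western group had the lowest mean of all 4 groups.

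Genes of G protein signalling gave 2 rises and 1 fall among 25, with a median of 0.06. Regulators of G protein signalling speed the switching off of G proteins. Rgs16 fell by 0.69 (9.04 ± 0.16 in WT, 8.35 ± 0.21 in SHPKO), with a chow difference of 0.15. Rgs2 rose by 0.75 on western diet and by 2.11 on chow, and the interaction was -1.35 (adjusted p = 0.0018). The other kept probe of Rgs2 gave 0.36 on western diet, and that call was lost with the mean over its probes. Rgs4 rose by 0.67, a call that was lost when any 1 of the 6 western diet arrays was left out. Prkar1a, a regulatory subunit of protein kinase A, differed by 0.06. None of 22 immediate early genes was called on western diet, where Fos differed by -0.14 and Egr1 by 0.10. On chow both were higher in SHPKO, by 1.42 and 1.28, and their interactions were called.

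In lipid metabolism the change rested on few genes. Of 24 fatty acid synthesis genes only Scd1, the stearoyl-CoA desaturase, was called. It measured 6.36, 5.91 and 6.11 in WT and 7.12, 7.14 and 7.14 in SHPKO, and rose by 1.01 ± 0.15 (adjusted p = 0.00087). On chow it differed by -0.59, and the interaction was 1.59. Acly, which supplies acetyl-CoA, was higher by 0.34 (adjusted p = 0.067). Of 27 genes of fatty acid oxidation, Pdk4, which slows glucose oxidation, rose by 0.59 and Hadh, a dehydrogenase known to restrain insulin release, fell by 0.90. Both calls were lost when any of several single arrays was left out. Of 23 cholesterol genes 0 were called, with a median of 0.00. Among 17 nuclear receptors and partners of SHP 0 were called, with a median of 0.07, and Vdr and Hdac3 differed by -0.19 and -0.05.

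Stress and antioxidant genes rose singly. Gpx3, the secreted glutathione peroxidase, measured 9.89, 9.94 and 9.90 in WT and 10.83, 10.75 and 10.53 in SHPKO, a rise of 0.79 ± 0.11 (adjusted p = 0.00063). On chow both genotypes were at the SHPKO level (10.53 and 10.52). Hmox1, the haem oxygenase, was at least 1.14-fold higher, and these were the 2 called of 35 antioxidant genes. Of 39 ER stress genes 2 rose, with a median of 0.15. Nupr1, a stress-induced chromatin protein, rose by 0.62, and the call was lost when the blocks were removed before normalization. Derl3, of ER-associated degradation, rose by 0.65, lost without WT array 2. The ER genes P4hb and Herpud1 differed by 0.28 and -0.03. Txnip, the glucose-induced thioredoxin inhibitor, was higher by 0.26 (adjusted p = 0.077) on western diet and by 1.11 on chow, with an interaction of -0.86.

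Of 25 cell cycle genes 3 rose, with a median of 0.17. Cenpa, the centromeric histone, rose by 0.82, and Uhrf1, which keeps DNA methylation through replication, was at least 1.31-fold higher. On chow the order was the opposite, with Cenpa lower in SHPKO by 0.76 and Uhrf1 at 6.17 in WT and 4.84 in SHPKO, the latter below the lowest detected signal. The cyclin-dependent kinase inhibitor gene Cdkn1a rose by 0.69, while the beta cell cyclin Ccnd2 was at 12.33 ± 0.34 in WT and 12.53 ± 0.18 in SHPKO. Of 15 imprinted genes Impact, an inhibitor of GCN2 signalling, rose by 0.84 ± 0.09, and Dlk1, a Notch ligand relative, fell by 0.76. Ctsk, a lysosomal protease and the one called of 30 lysosome and autophagy genes, was at least 1.53-fold lower. In the interferon list 3 of 36 genes rose and 2 fell. The chemokine gene Cxcl10 and the transcription factor gene Irf8 were at least 1.15-fold and 1.71-fold higher and Ifi27l2a rose by 0.86. The antiviral gene Oas2 fell by 0.83, to a SHPKO mean of 5.52 at which it was not detected on all arrays. The GTPase gene Gbp3 fell by 0.62, but its other probe gave -0.17. The Gbp3 call was lost with the mean over its probes and without WT array 3 or SHPKO array 1. Vcam1, an adhesion molecule, rose by 0.84.

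**Figure D3:**
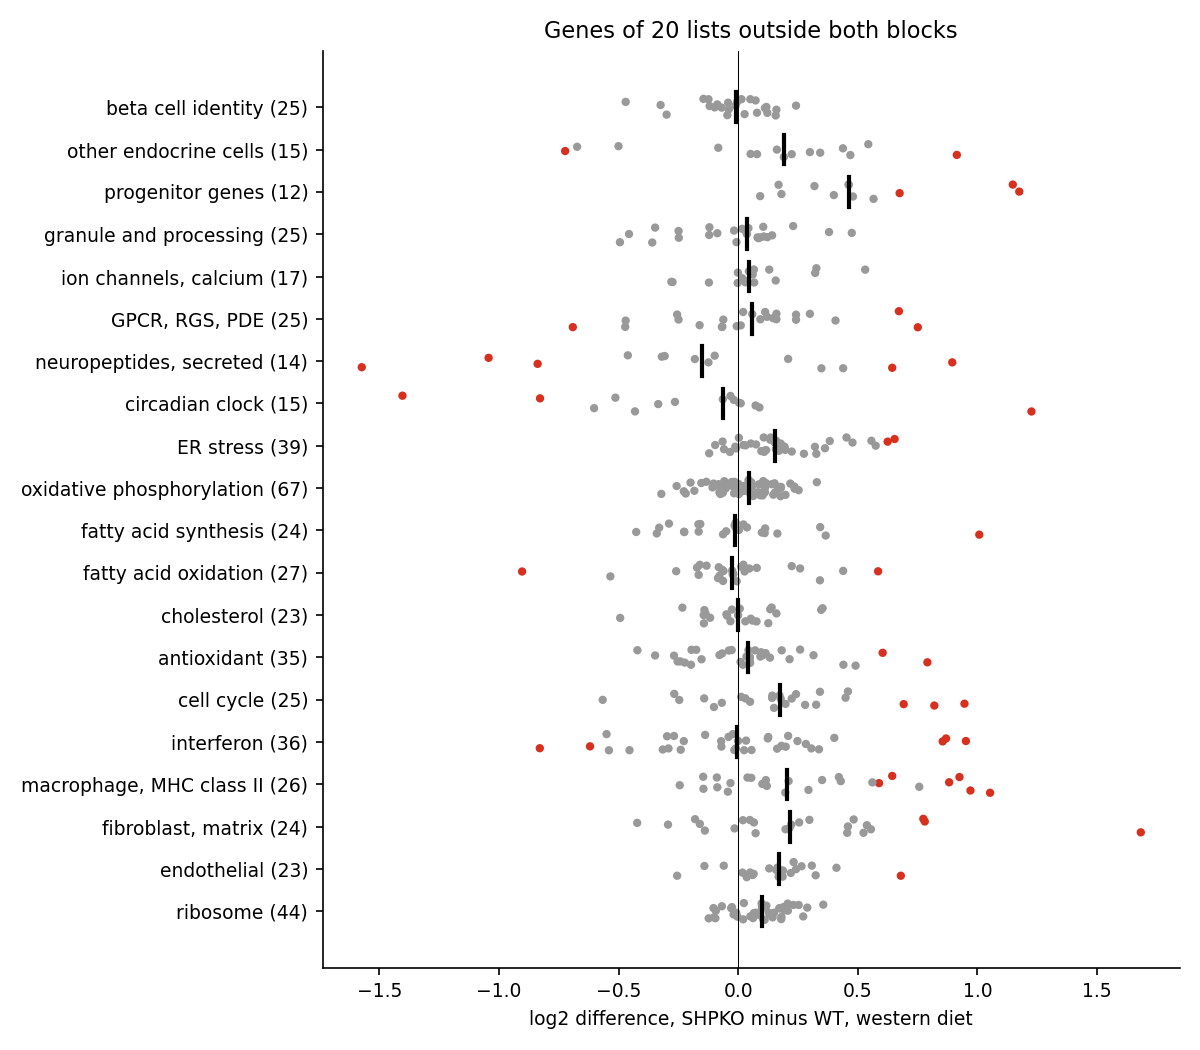
Log2 difference between SHPKO and WT on western diet for each gene of 20 lists outside both blocks, with the number of genes in parentheses, called genes in red, and the list median as a bar. Among these 20 lists the progenitor genes have the highest median, at 0.46, while the erythroid list, which is not drawn, has 0.53 over 4 genes.

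Genes beside Nr0b2 on chromosome 4 fell more often than others. Counting in RefSeq order, 102 of the genes lay within 100 protein-coding genes of Nr0b2, a window chosen after the values were seen, so the counts are a description. Of these, 12 were called (11.8%), 9 of them lower (8.82%), against 192 of the other 8489 genes (2.26%), of which 0.648% of the 8489 were lower. Gpn2, a GTPase gene 2 genes from Nr0b2, measured 8.71, 8.84 and 8.74 in WT and 7.08, 7.18 and 7.24 in SHPKO. It fell by 1.60 ± 0.11 (adjusted p = 3.7e-07) on western diet and by 1.74 on chow. Bsdc1, 74 genes away, fell by 1.51, and Tcea3, a transcription elongation factor 64 genes away, by 1.39. The collagen gene Col16a1 fell by 1.24 and Hnrnpr, an RNA-binding protein, by 1.18. Xkr8, a lipid scramblase, fell by 0.99, Trim62 was at least 1.78-fold lower, Serinc2 at least 1.40-fold and Mtfr1l at least 1.38-fold. Cd164l2 rose by 0.82 and Zbtb8os by 0.69, and the cannabinoid receptor gene Cnr2 was at least 1.25-fold higher. Of the 12, 10 were called on chow in the same direction too, and only Cnr2, a leukocyte gene, had a called interaction. Elsewhere 20 of the 192 were called on both diets in the same direction. The part of flanking DNA carried along with the deletion was not tested.

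**Figure D4:**
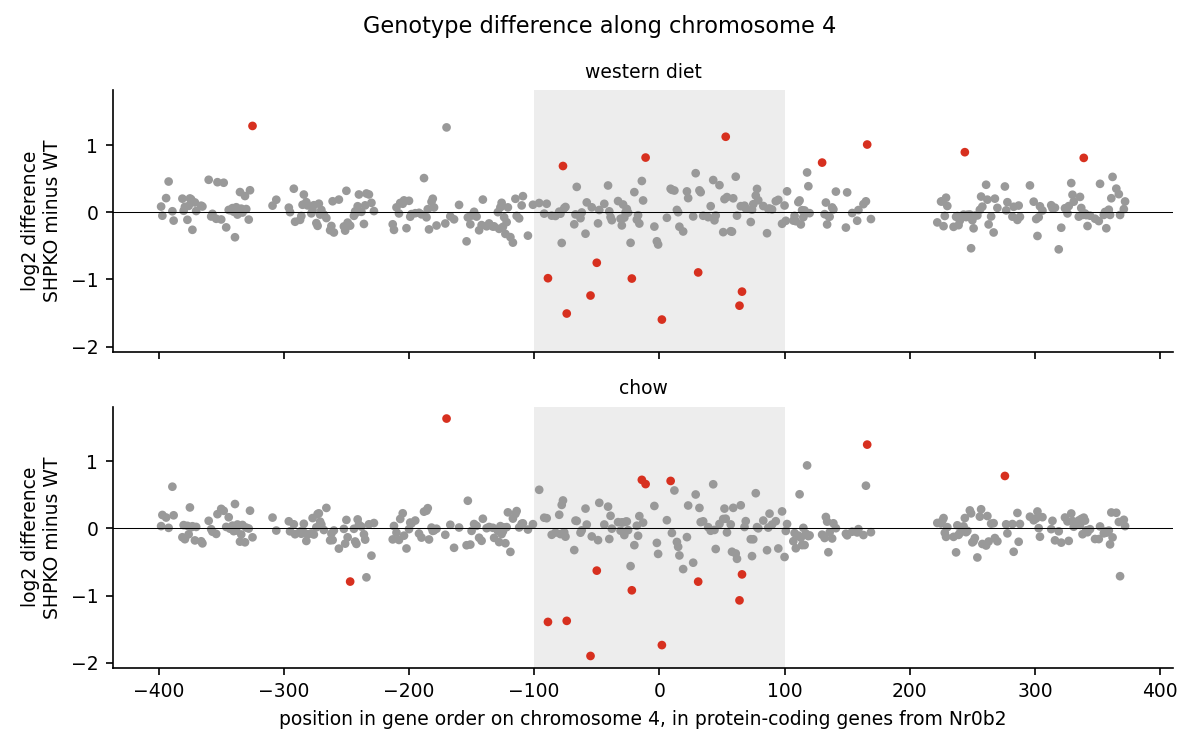
Log2 difference between SHPKO and WT for genes in RefSeq order along chromosome 4, counted in protein-coding genes from Nr0b2, on western diet (top) and on chow (bottom), with called genes in red and the window of 100 genes each side shaded. Within the window 9 genes fell on western diet, with Gpn2 at -1.60 the lowest.

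With the genes sorted as leukocyte, macrophage, stromal, exocrine, blood or liver and the neighbours of Nr0b2 set aside, 118 called genes remained. Of these, 68 were higher and 50 lower, and 78 were detected in both groups. They still held the interferon list genes Cxcl10 and Ifi27l2a, and which cells carried any of these changes was not tested. Ppp1r3c, which targets a phosphatase to glycogen, was at 7.59, 7.54 and 7.61 in WT and 8.37, 8.45 and 8.42 in SHPKO, a rise of 0.83 ± 0.08. Cdk5rap1, which modifies mitochondrial tRNA, was at 8.28, 8.30 and 8.62 in WT and 7.48, 7.46 and 7.58 in SHPKO, a fall of 0.89 ± 0.12. Both differed by far more than their arrays did. Slpi, a secreted protease inhibitor, rose by 1.85 and Prr33 by 1.65. Cabp2, a calcium-binding protein, was at least 1.77-fold lower, and the calpain gene Capn8 at least 1.38-fold. Sgip1, an endocytic adaptor, fell by 1.16, Slc15a2, a peptide transporter, by 0.98 and Fxyd3, an ion pump regulator, by 0.93, while Azgp1 was at least 1.21-fold lower. Slc15a2 had a SHPKO mean of 5.25 and was not detected on all SHPKO arrays. The Fxyd3 call was lost without WT array 1, WT array 3 or SHPKO array 1.

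For some bright genes the probes of one gene did not move together. Of 45 called genes outside the blocks with over 1 kept probe, 18 had a probe that differed by under 0.2 or with the opposite sign. Hmgxb3 rose by 1.35, Rab5a by 1.34, Spata6 by 1.29 and Zfp207 by 1.27 on the brightest probe, while the lowest probe of each gave -0.13, -0.34, 0.10 and -0.19. In all 4 genes the WT group on western diet was the one set apart, for example 10.10 for Hmgxb3 against 11.20 in WT on chow. Sgip1, too, had a second probe at 0.23.

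Set beside chow, where 2.11% of tested genes were called, 37 of the 204 genes were also called, 30 in the same direction and 7 in the opposite one. In 126 of the 204 the sign was the same on both diets and in 78 it was opposite. The genotype difference itself differed between diets for 83 of the 204, where 2.07% of all tested genes passed, although that share is raised by the choice of genes already called on one of the diets. Among the 140 genes that rose, SHPKO on western diet was the highest of the 4 groups for 120, and WT on western diet was the lowest for 63. Of the 64 that fell, SHPKO on western diet was the lowest for 43 and WT on western diet the highest for 31. These counts are raised by the choice of genes too, since a call already sets the WT and SHPKO western groups apart. No arrays are shared between the western and chow comparisons.

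**Figure D5:**
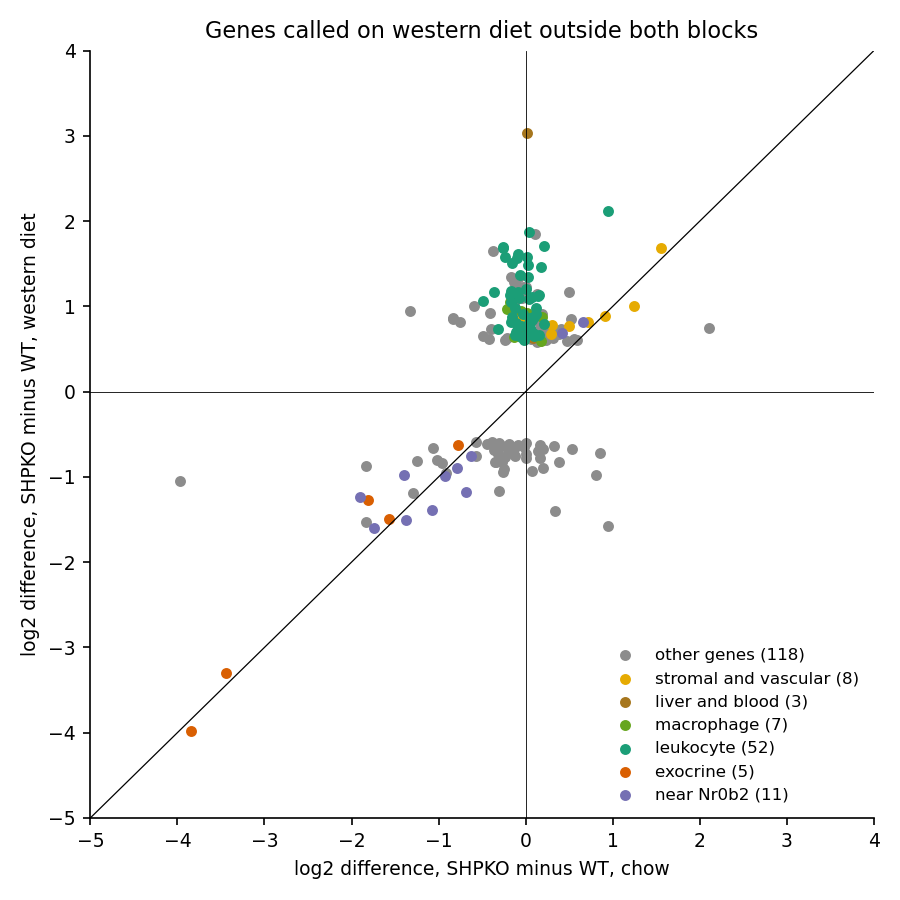
Log2 difference between SHPKO and WT on chow (x axis) and on western diet (y axis) for the 204 genes called on western diet outside both blocks, by groups sorted after their values were seen, with the line of equal difference. Exocrine genes and neighbours of Nr0b2 lie near the line, whereas the 52 leukocyte genes lie near 0 on chow except for Cxcl13 at 0.95, with its WT chow level below the lowest detected signal.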

How the data were processed

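Total RNA of islets from 4 groups (WT and SHPKO, chow and western diet) was measured on 12 Illumina beadchip arrays, 3 per group. The deposited tables hold a raw intensity per probe, which the authors read out with BeadStudio per the submitters' processing notes (no version is given), and a detection p-value per probe, which the deposited table gives against the negative controls. A separate deposited table of normalized intensities was used only as an alternative. Slide and scan time are not given in the sources used here, and the number of arrays limits the precision.

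Intensities were background-corrected and quantile-normalized with neqc (limma 3.58.1 in R 4.3.3), with the background taken from the detection p-values and 16 added before log2. Of 45281 probes, 34885 had 1 gene name, 18 several and 10378 none. Probes with a detection p-value below 0.01 on all 3 arrays of any group were kept (14756, named or not), and among those with 1 name the brightest stood for its gene (8875 genes). All 4 groups entered one fit of group means with eBayes, with differences for western diet, for chow and between them (the interaction), and Benjamini-Hochberg adjustment over all 8875 genes. Calls needed an adjusted p below 0.05 and a 1.5-fold change. The procedure was tested on simulated data.

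The members, the blocks and the 40 gene lists (1443 of 1591 symbols matched the array) were chosen with earlier results of these data known. Named genes were Nr0b2 and the islet hormones, the 20 largest called rises and 20 falls outside the blocks without overlap, the 6 largest of each block, up to 6 called and 4 bright uncalled members of each list described, and the 10 largest called interactions. Bhlha15, Cd3d, Coro1a, Pdx1, Nkx6-1, Slc2a2, Igf2, Ciart, Cry2, Csf1r, Adgre1, Serinc2, Mtfr1l, Cd164l2, Zbtb8os, Cnr2, Zfp207, Spata6, Ppp1r3c, Cdk5rap1, Gm5409, Mafa, Cd3e, Cd8b1, Il7r and Lyz2 were chosen after their values were seen.

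Same-numbered western arrays of both genotypes deviated together from their group means (correlations 0.42, 0.15 and 0.41). What the numbers mark is not given, and no correlation of differently numbered arrays is set beside these. The main fit did not pair the arrays, and a replicate block entered only as an alternative. Alternatives covered background correction, normalization, filters, probe choice, the arrays fitted, a replicate block, single arrays left out and the fold required.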

Additional observations from a re-analysis of the deposited data

Results flagged for a closer look

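For the genes below the difference between SHPKO and WT was not the same on both diets, by limma's interaction term with an adjusted p below 0.05 and a 1.5-fold size. The value in parentheses is the western diet difference minus the chow difference on the log2 scale, and 2.07% of all tested genes passed. Where a gene was near background in a group, the value is not exact.

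Among lymphoid and leukocyte genes, the western diet difference was the more positive one for Cd79b (3.12), Fcmr (3.27), Ccr6 (2.20), Hvcn1 (2.17), Cd22 (1.89), Mzb1 (1.78), Coro1a (1.64) and Cd3d (1.41) of the lymphoid block. The same held for Plac8 (1.94), Il4i1 (1.96), Stk17b (1.83), Btk (1.82), Cxcl13 (1.17) and Cnr2 (0.98). Genes of the macrophage and MHC class II list followed with Cd83 (1.23), Lgals3 (1.18) and Lyz1 (0.90). Those of the interferon list were Irf8 (1.00), Cxcl10 (1.71) and Ifi27l2a (1.69). In the acinar block the fall was deeper on western diet for Reg1 (-1.38) and Try10 (-1.10).

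Hormone and peptide genes were Vip (-2.52), Gal (2.93), Ghrl (-1.58), Ppy (-1.07) and Angptl7 (0.74). For Gal both SHPKO groups were below the lowest detected signal, so its value is set against background. The clock genes were Arntl (1.26), Dbp (-1.74), Nr1d1 (-1.22), Ciart (-1.21) and Cry2 (-1.01). Transcription factors of endocrine cells and progenitors were Neurog3 (1.02), Irx2 (1.00) and Sox4 (-1.14).

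Signalling and immediate early genes were more negative on western diet, with Fos (-1.55), Egr1 (-1.19), Rgs2 (-1.35) and Rgs16 (-0.84). Metabolic and stress genes were Scd1 (1.59), Ppp1r3c (0.76), Txnip (-0.86), Gpx3 (0.80), Hmox1 (0.84), Nupr1 (0.84), Derl3 (1.15) and Impact (0.82). Cell cycle genes were Uhrf1 (2.28) and Cenpa (1.58), and Uhrf1 was below the lowest detected signal in SHPKO on chow and in WT on western diet. Bright genes whose probes disagreed were Hmgxb3 (1.43), Rab5a (1.51), Zfp207 (1.38) and Spata6 (1.42). The remaining ones were Mup2 (3.01), Slpi (1.74), Prr33 (2.02), Ctsk (0.96), Cdk5rap1 (-1.09) and Slc15a2 (-1.78).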

How the results depend on the processing

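No called western diet difference of a named gene and no count changed direction under the settings run, which did not cover chow differences, list medians or neighbour counts. The 279 called genes became 125 without background correction (64 higher, 61 lower, so the share higher went from 61.6% to 51.2%), 147 among genes detected on all 6 western arrays and 129 at a 2-fold minimum. The 204 outside the blocks became 63, 105 and 60 under the same settings, and 118 with the further cell type genes and the neighbours of Nr0b2 set aside, a choice made after seeing the data. The 184 interactions became 95 among genes detected on all 6 western arrays and 114 at 2-fold. Fewer genes could be called under the stricter filter and fold by construction, and for background correction the cause was not tested. Leaving out single arrays gave 235 to 274, 161 to 199 and 146 to 190. With the replicate block the counts were 290, 215 and 238, and among the named genes on western diet it ended the call of Ghrl alone. All 204 genes kept their sign in every setting that tested them, and 62 were still called without background correction and 201 with the block. Of the 98 named genes that were called, 38 were called in every setting that tested them, Arntl, Dbp, Vip, Neurog3, Scd1, Dcn and Gpn2 among them, and 41 lost the call without background correction, among them Aldh1a3, Nr1d1, Gal, Cenpa and Uhrf1. Calls were gained by Ciart, Slc2a2, Sox4 (without SHPKO array 3) and Zfp36l1 (with median scaling, and without WT array 3). Removing the blocks before normalization left 192 called genes, 70.8% of them higher. Signal near background limits the genes detected in one group only.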
